A study of Rattus norvegicus with 38 samples.

Results

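The livers of Sprague-Dawley rats that received EF together with RD were compared with those of control rats, neither group injected with lipopolysaccharide (LPS). The comparison was drawn from the group labels: 4 EF_RD libraries and 5 control libraries, 9 of the 38 RNA sequencing libraries of the study. EF, PF and RD are extracts named only by these letters in the labels, and their composition is not given in the sources used here. EF_RD rats received 2.5 g/kg of EF and 200 mg/kg of RD by the intragastric route, and livers were collected on day 28. What the control rats were given by that route is not given in the sources used here. 4 further groups were used for comparison: EF rats (2.5 g/kg of EF, n = 5), EF_PF rats (2.5 g/kg each of EF and PF, n = 5), and the LPS-injected groups LPS (n = 5) and LPS_EF_RD (n = 5), with the same doses of EF and RD. None of the groups received RD without EF, so the comparison with control measures both together. The labels call the cell type hepatocyte, but no separating step is described, and the samples are treated here as whole liver. The design text speaks of biological replicates, while the labels do not tie a library to an animal, so p-values measure the spread between these libraries. Libraries are named by group and label number: control 3 to 7 and EF_RD 1 to 4.

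The liver makes bile acids from cholesterol, and Cyp8b1, the sterol 12-alpha-hydroxylase, is the enzyme that directs synthesis towards cholic acid. It also clears foreign compounds with cytochromes P450 such as Cyp1a1 and Cyp1a2, which the aryl hydrocarbon receptor induces, and with conjugating enzymes of the Ugt1a family. Fatty acids are made there from glucose, and Scd (stearoyl-CoA desaturase) introduces the double bond of oleic acid, under control of the factors Srebf1 and Mlxipl. Srebf2 is the matching factor for cholesterol synthesis and uptake.

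Before any result, 2 of the 9 libraries stood apart by RNA of other tissues. The 30 skeletal muscle markers summed to 7166 CPM (read counts scaled to library size by TMM) in EF_RD 1 and to 1260 to 2541 CPM in the other 8. Most of the sum in those 8 was Car3, a carbonic anhydrase that liver also expresses (1077 to 2528 CPM over the 9 libraries). Without Car3 the sum was 6089 CPM in EF_RD 1 and 9.35 to 25.9 CPM in the others, in all 8 of which Myl2, Tnni1, Pvalb and Myot had a count of 0. EF_RD 1 also held more adipocyte markers (427 CPM, against 70.3 to 107 in the others), islet markers (5.88 CPM) and erythroid markers (2166 CPM). Control 5 held 4369 CPM of 27 exocrine pancreas markers, led by Amy2a3, Cel and Prss1, against 47.0 to 76.9 CPM in 7 libraries and 214 CPM in EF_RD 1, and 3563 CPM of erythroid markers. Gene counts, and the fold changes or calls of the genes that were called, are therefore also given without these 2. The 18 hepatocyte markers, among them Alb, Apoa1 and Ttr, summed to 186342 to 227176 CPM in control and 155204 to 186153 CPM in EF_RD, with none of them at 0. Total counts ran from 21563143 to 27076278 read pairs per library, 12969 to 14261 genes had at least 10 counts, and mitochondrially encoded genes took 3.26% to 4.34% of counts.

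**Figure D1:**
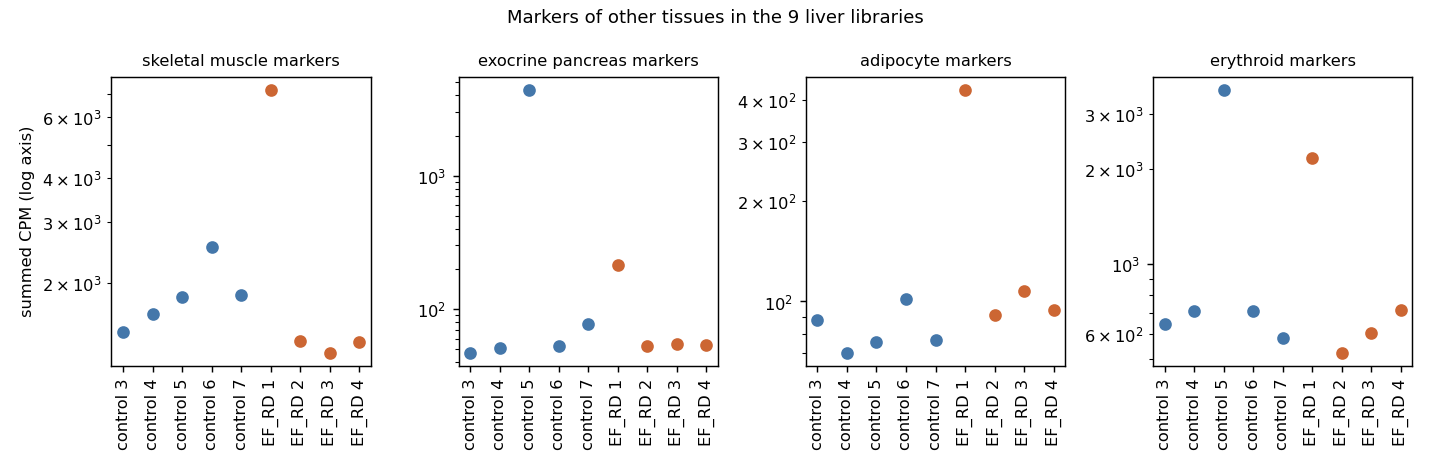
Summed CPM (log axis) of 4 marker lists in each of the 5 control (blue) and 4 EF_RD (orange) libraries, 1 point per library. EF_RD 1 is the highest for muscle and adipocyte markers, and control 5 for exocrine pancreas and erythroid markers.

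EF_RD 2 and EF_RD 4 were also closer to each other than libraries of the study otherwise were. The median over genes of their chi-square ratio, which is 1 where 2 libraries differ by counting noise alone, was 1.89, against 3.75 to 48.0 in the 702 other pairs of libraries. A difference of over 2-fold was found for 0.294% of genes between them and for at least 1.95% in any other pair. They differed by more than counting noise and were kept as 2 libraries. Whether they come from 1 animal is not given in the labels, so counts are also given with the pair summed into 1 library.

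The promoters of 4 genes are shown because the results turn on them: Cyp8b1 and its neighbour Ackr2, which rose together, Cyp1a2, and Scd. Each line holds the 250 bases before the RefSeq start in build GRCr8, read 5′ to 3′ on the gene's strand: chr8:130457593-130457842 (minus strand) for Cyp8b1, chr8:130448036-130448285 (plus strand) for Ackr2, chr8:66978150-66978399 (minus strand) for Cyp1a2 and chr1:253231732-253231981 (minus strand) for Scd. Capitals mark matches to 1 of 3 motifs searched on both strands, which do not overlap here.
Cyp8b1: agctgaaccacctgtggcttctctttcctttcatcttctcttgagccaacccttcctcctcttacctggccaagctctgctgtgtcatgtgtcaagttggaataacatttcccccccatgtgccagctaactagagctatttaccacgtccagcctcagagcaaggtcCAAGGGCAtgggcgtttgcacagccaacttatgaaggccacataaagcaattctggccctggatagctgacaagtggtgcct
Ackr2: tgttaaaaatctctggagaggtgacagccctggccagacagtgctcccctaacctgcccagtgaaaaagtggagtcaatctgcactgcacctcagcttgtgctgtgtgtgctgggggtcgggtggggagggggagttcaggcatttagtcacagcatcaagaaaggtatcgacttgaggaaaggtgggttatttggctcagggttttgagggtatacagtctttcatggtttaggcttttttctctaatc
Cyp1a2: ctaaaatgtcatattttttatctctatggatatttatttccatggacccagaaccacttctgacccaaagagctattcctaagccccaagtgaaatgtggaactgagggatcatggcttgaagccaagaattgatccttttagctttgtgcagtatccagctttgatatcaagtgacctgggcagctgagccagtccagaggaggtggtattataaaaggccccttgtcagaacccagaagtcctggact
Scd: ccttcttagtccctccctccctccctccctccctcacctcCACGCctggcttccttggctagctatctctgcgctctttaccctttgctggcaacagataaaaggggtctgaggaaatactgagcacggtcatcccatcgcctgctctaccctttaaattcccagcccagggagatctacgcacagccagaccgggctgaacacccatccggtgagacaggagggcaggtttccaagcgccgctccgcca
The capitals in Cyp8b1 are the element CAAGGNCA, read by NR5A nuclear receptors, which begins 82 bases before the start. It was found in 5.49% of the 27457 promoters and in 2 of the 39 promoters matched among the 51 genes called in both fits described below (Cyp8b1 and Gnpnat1). The capitals in Scd are the core GCGTG of the xenobiotic response element, on the opposite strand 210 bases before the start. That core was found in 27.2% of all promoters, in 14 of those 39, and in 6 of 8 matched promoters of the aryl hydrocarbon receptor list, but not in this window of Cyp1a2. Those 6 were Ahrr, Arnt, Cyp1b1, Nqo1, Tiparp and Ugt1a6, none of which was called in EF_RD against control. Cyp1a1, the other called gene of that list, had no matched promoter. The sterol regulatory element TCACNCCAC was found in 0.976% of all promoters, in 0 of the 39, and in 0 of 23 matched promoters of the mevalonate, late sterol and sterol uptake lists. A match is a description of the letters and no match says nothing of a factor.

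Of 14786 genes tested, 225 were called (1.52%) at an adjusted p under 0.05 by edgeR's quasi-likelihood test, 127 higher (0.859%) and 98 lower (0.663%) in EF_RD. At least 2-fold differences were found for 89 of the higher and 21 of the lower genes. An unadjusted p under 0.05 was found for 2416 of the 14786 genes, which is the background for such counts in the lists below. Without EF_RD 1 and control 5, 56 genes were called (0.376%), 27 higher (0.181%) and 29 lower (0.195%), and 51 of these were among the 225. Of the 225, 172 were tested and not called without the 2 libraries. EF_RD 1 was the highest of the 9 libraries for 76 of the 172. The share of all genes tested for which it was the highest is not given here, so the 76 cannot be set against it. The CPM of the groups did not overlap for 150 of the 225 and for 45 of the 51, against 2.48% (higher) and 3.34% (lower) of all genes tested. The calls were made on these same libraries, so the larger share among them is no further support. With EF_RD 2 and 4 summed, 199 genes were called (1.33%), 148 higher (0.987%) and 51 lower (0.34%). With the pair summed and EF_RD 1 and control 5 left out, 9 were called (0.0593%), 6 higher (0.0395%) and 3 lower (0.0198%). Those 9 were called in each of these 4 fits: Cyp8b1, Ackr2, LOC102551973, Syne2, Lipe and Slc13a3 higher, and Trpm2, Nipsnap3b and Eif2ak3 lower (LOC102551973, Nipsnap3b and Eif2ak3 were named after their values were seen). The count rests on single libraries and on the pooled estimate of spread: it was 50 without EF_RD 1 (0.335%, 30 higher at 0.201% and 20 lower at 0.134%), 76 without control 3, 127 without control 4 and 134 without control 7, and 16 when only the 9 libraries were fitted. Scaled by total counts instead, the same fit gave 234 higher of 280 called (83.6%), against 56.4% higher under TMM.

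**Figure D2:**
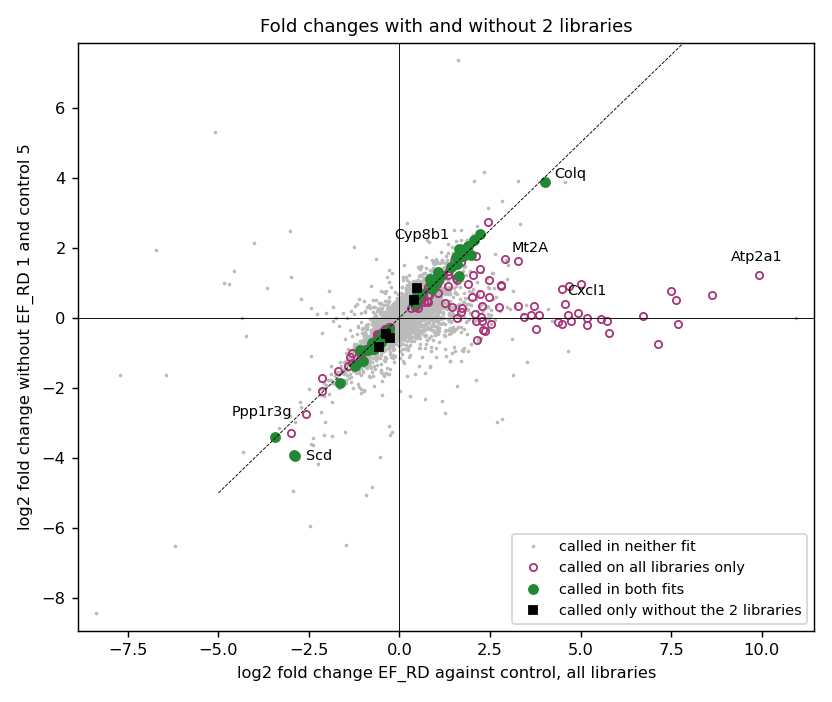
Log2 fold change of each gene on all libraries (x axis) and without EF_RD 1 and control 5 (y axis), 1 point per gene tested in both fits, with equality dashed. Genes called in both fits (green) keep their sign, but not all lie near the dashed line: Scd is at -2.89 on the x axis and -3.96 on the y axis. The muscle gene Atp2a1 goes from 9.94 on the x axis to 1.22 on the y axis.

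Among genes of bile acid synthesis, Cyp8b1 rose. Its level was 460.2, 427, 369.8, 606 and 303 CPM in control 3 to 7 and 1261, 1678, 1174 and 1702 CPM in EF_RD 1 to 4. The lowest EF_RD library was above the highest control library. The log2 fold change was 1.75 ± 0.22 (SE), with an adjusted p of 2.94e-05, and 1.76 ± 0.25 (adjusted p = 0.000558) without EF_RD 1 and control 5. The call stood in each of the 23 alternative fits, with log2 values of 1.65 to 1.90. Cyp7a1, the rate-limiting enzyme of the pathway, was at 145, 102, 151, 156 and 35.6 CPM in control and 114, 105, 178 and 106 CPM in EF_RD. The groups overlapped, and its log2 difference was 0.09 ± 0.54 (adjusted p = 0.961). Of 15 tested genes of this list, Cyp8b1 was the 1 called, and the list's median log2 difference was 0.19, against 0.01 for all genes. Nr0b2, the repressor SHP, averaged 53.02 ± 29.0 CPM (SD) in control and 14.4 ± 15.9 CPM in EF_RD, a difference that did not pass the test (log2 -1.88 ± 0.71, adjusted p = 0.174). The sterol exporters Abcg5 (1.11 ± 0.38, adjusted p = 0.127) and Abcg8 (1.03 ± 0.49, adjusted p = 0.285) did not pass either.

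The genes beside Cyp8b1 rose with it. In build rn6, the build named in the count table's header, Ackr2 (chr8:130526521-130543566), Cyp8b1 (chr8:130548418-130550388), LOC102551973 (chr8:130554737-130557676) and Fam198a (chr8:130581072-130614118) lie within 87.6 kb. Ackr2, a scavenging receptor for inflammatory chemokines, was at 2.05, 2.42, 2.88, 3.09 and 1.56 CPM in control and 8.73, 6.91, 5.81 and 7.33 CPM in EF_RD. Every EF_RD library was above every control library, and the log2 difference was 1.58 ± 0.21 (adjusted p = 6.82e-05), or 1.55 ± 0.24 (adjusted p = 0.000965) without the 2 libraries. Fam198a was at 0.373, 0.230, 0.791, 0.783 and 0.565 CPM in control and 2.59, 2.50, 1.85 and 3.35 CPM in EF_RD, again without overlap, with a log2 difference of 2.23 ± 0.38 (adjusted p = 0.00248). LOC102551973 averaged 0.730 ± 0.205 CPM (SD, n = 5) in control and 3.07 ± 1.07 CPM (n = 4) in EF_RD, a log2 difference of 2.06 ± 0.30 (adjusted p = 0.000234). All 4 were also called without EF_RD 1 and control 5. With the pair EF_RD 2 and 4 also summed, Fam198a was not called (adjusted p = 0.0534). The window of 250 kb on either side held 18 genes, of which 13 were tested, and the other 9 tested were not called. Higd1a, 65.9 kb to one side by its start, had a log2 difference of -0.05 ± 0.19, and Pomgnt2, 67.1 kb to the other side, one of -0.02 ± 0.16. Of the 51 genes called in both fits, these 4 were the ones within 100 kb of another, and the next smallest gap was 1075.1 kb. The count table's header names no strand option. Reads of transcripts that run past an annotated end therefore cannot be told apart from reads of a neighbour.

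**Figure D3:**
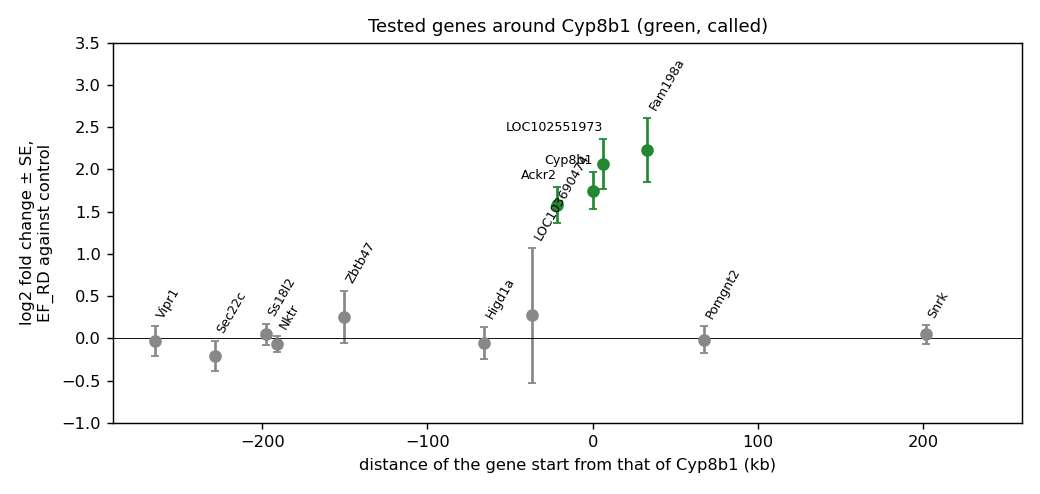
Log2 fold change with SE of the 13 tested genes around Cyp8b1, by the distance of each gene's start from that of Cyp8b1 in kb. The 4 called genes (green) lie at -21.9, 0, 6.3 and 32.7 kb with values of 1.58 to 2.23, and the 9 others (grey) lie between -0.21 and 0.27.

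Genes of foreign compound metabolism moved in both directions. Cyp1a2 was at 315, 419.9, 470.3, 337 and 329.8 CPM in control and 1089.6, 776, 1274 and 844 CPM in EF_RD, with no overlap. Its log2 difference was 1.41 ± 0.26 (adjusted p = 0.0055) and 1.46 ± 0.30 (adjusted p = 0.0208) without the 2 libraries. Cyp1a1 was at 1.58, 0.652, 1.58, 0.330 and 0.565 CPM in control and 4.97, 2.76, 8.58 and 3.98 CPM in EF_RD, also with no overlap, and rose by 2.45 ± 0.62 on the log2 scale (adjusted p = 0.0357), a call that was not made without the 2 libraries (2.72 ± 0.73, adjusted p = 0.0913). These 2 were the called members of 8 tested in the aryl hydrocarbon receptor list, whose median was 0.44. Ugt1a5, a glucuronosyltransferase whose reads may be split with its near-identical Ugt1a relatives, was at 27.6, 23.9, 39.0, 31.3 and 45.6 CPM in control and 43.4, 77.6, 75.5 and 83.0 CPM in EF_RD. EF_RD 1 alone lay within the control range, and the log2 difference was 1.06 ± 0.24 (adjusted p = 0.0174), or 1.29 ± 0.26 (adjusted p = 0.0147) without the 2 libraries. Cyp2c22, a member of the Cyp2c family in which reads may likewise be split, was at 1270.1, 967, 1323, 1094 and 1379 CPM in control and 405, 664, 661 and 556 CPM in EF_RD. It fell in every EF_RD library, by 1.08 ± 0.19 on the log2 scale (adjusted p = 0.00357), and by 0.91 ± 0.21 (adjusted p = 0.0448) without the 2 libraries. Cyp2c11, the male-pattern P450 of rat liver, was at 1439 to 1986 CPM in control and 760.1 to 934 CPM in EF_RD without overlap, but its difference of -0.88 ± 0.38 did not pass the test (adjusted p = 0.245). Of the 20 tested genes of the CAR and PXR list, 0 were called by edgeR (7 at an unadjusted p under 0.05, 1 called by DESeq2 and 0 by limma), with a median of 0.00. Prdx1, a peroxidase of the Nrf2 list, fell from 575 ± 87.4 to 430.5 ± 33.8 CPM (log2 -0.42 ± 0.09, adjusted p = 0.0106), as the 1 called of 23. Without the 2 libraries its adjusted p was 0.0751.

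Cholesterol synthesis genes leaned higher, with few calls. Tm7sf2, a sterol reductase late in the pathway, was at 71.5, 66.7, 107, 96.5 and 89.8 CPM in control and 159.8, 212, 148 and 187 CPM in EF_RD. The groups did not overlap, and it rose by 1.04 ± 0.21 on the log2 scale (adjusted p = 0.00664), and by 1.17 ± 0.23 (adjusted p = 0.0147) without the 2 libraries. It was the 1 called of 13 late sterol genes, which had a median of 0.30, with 12 of 13 above 0. Of 8 mevalonate pathway genes 0 were called by edgeR, DESeq2 or limma (3 at an unadjusted p under 0.05 by edgeR), with 7 above 0 and a median of 0.47. The largest of their differences were those of Mvd (0.94 ± 0.30, adjusted p = 0.105) and Hmgcs1 (0.86 ± 0.27, adjusted p = 0.0984). Srebf2 was at 49.8, 39.5, 45.0, 42.1 and 56.1 CPM in control and 77.3, 66.4, 72.0 and 63.0 CPM in EF_RD, and rose by 0.58 ± 0.13 (adjusted p = 0.0144), the 1 called of 10 genes of sterol sensing and uptake. Without the 2 libraries its adjusted p was 0.114.

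Among genes of fatty acid synthesis, Scd fell. It was at 3719, 882, 1282, 1466 and 3831 CPM in control and 733, 139, 205 and 133 CPM in EF_RD. All EF_RD libraries lay below all control libraries, EF_RD 1 being the highest of them, and control libraries themselves ran from 882 to 3831 CPM. Control 3 and 7 were the highest controls, as they also were for Fasn, Pklr and Mgat4b below. The log2 difference of Scd was -2.89 ± 0.73 (adjusted p = 0.0337) and -3.96 ± 0.83 (adjusted p = 0.0236) without EF_RD 1 and control 5. The call was lost in 9 of the 23 alternative fits, among them the one with EF_RD 2 and 4 summed (adjusted p = 0.0911). Of the 21 tested genes of fatty acid and triglyceride synthesis, Scd was the 1 called lower and Aacs (acetoacetyl-CoA synthetase, 7.31 ± 2.54 to 24.8 ± 8.42 CPM, log2 1.76 ± 0.41, adjusted p = 0.0221) the 1 called higher, the latter not without the 2 libraries (adjusted p = 0.103). The list's median was -0.48, with 6 of 21 above 0, and -0.68 without the 2 libraries. The desaturase Fads2 (-1.05 ± 0.30, adjusted p = 0.0624), the desaturase Fads1 (-0.79 ± 0.26, adjusted p = 0.114) and Srebf1 (-0.92 ± 0.35, adjusted p = 0.176) did not pass. Fasn, fatty acid synthase, was at 435, 112, 122, 97.6 and 324 CPM in control and 276, 125, 142 and 114 CPM in EF_RD, with groups that overlapped (adjusted p = 0.669).

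Genes of lipid breakdown were mostly above 0. Lipe, hormone-sensitive lipase, was at 3.40, 6.06, 7.12, 7.05 and 3.48 CPM in control and 33.0, 9.89, 12.1 and 12.5 CPM in EF_RD. EF_RD 1, the library with adipocyte markers, was far above the rest, and the other 3 were also above all controls. The log2 difference was 1.63 ± 0.26 (adjusted p = 0.000632) and 1.20 ± 0.22 (adjusted p = 0.00515) without EF_RD 1 and control 5. Of 29 tested targets of PPAR-alpha and genes of fatty acid oxidation, 25 were above 0 with a median of 0.35, and 1 was called, Acot2, a mitochondrial acyl-CoA thioesterase (11.1 to 16.2 CPM in control, 22.1 to 29.9 CPM in EF_RD, log2 0.998 ± 0.25, adjusted p = 0.0301, and 0.105 without the 2 libraries). The CPM of 7 of the 29 lay higher in all EF_RD than in all control libraries, as did that of 2.48% of all genes. The omega-hydroxylases Cyp4a2 (1.67 ± 0.51, adjusted p = 0.0862) and Cyp4a1 (1.04 ± 0.32, adjusted p = 0.0946), the hormone Fgf21 (1.56 ± 0.45, adjusted p = 0.0684) and the carnitine palmitoyltransferase Cpt1a (0.68 ± 0.27, adjusted p = 0.198) did not pass.

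Among genes of glucose and glycogen, Ppp1r3g, a glycogen-targeting subunit of protein phosphatase 1, was at 3.40, 8.78, 3.21, 6.22 and 2.22 CPM in control and 0.303, 0.579, 0 and 0.847 CPM in EF_RD. All EF_RD libraries were below all controls, and the log2 difference was -3.43 ± 0.61 (adjusted p = 0.00351) and -3.40 ± 0.68 (adjusted p = 0.0147) without the 2 libraries. Pklr, liver pyruvate kinase, was at 400.1, 193, 168, 141 and 312 CPM in control and 122, 114, 104 and 121 CPM in EF_RD, and fell by 1.08 ± 0.28 (adjusted p = 0.0392). Its adjusted p was 0.0876 without the 2 libraries. These were the 2 called of 16 genes of glycolysis and glycogen, with a median of -0.42 and 3 of 16 above 0. The transporter Slc2a2 (-0.71 ± 0.26, adjusted p = 0.154) and the branching enzyme Gbe1 (-0.76 ± 0.26, adjusted p = 0.132) did not pass. Of 12 gluconeogenesis genes 0 were called by edgeR, DESeq2 or limma, with 0 at an unadjusted p under 0.05 by edgeR. Pck1, the enzyme that commits carbon to glucose, was at 3541 to 4989 CPM in control and 2816 to 3377 CPM in EF_RD, without overlap (log2 -0.47 ± 0.30, adjusted p = 0.457).

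Of the genes of N-glycan branching that were named, Mgat2 and Mgat4b fell. Mgat2, which adds a branch to N-glycans, was at 93.8, 81.9, 64.0, 67.7 and 64.1 CPM in control and 58.5, 36.8, 49.2 and 38.1 CPM in EF_RD. The groups did not overlap, and it fell by 0.70 ± 0.15 on the log2 scale (adjusted p = 0.00914) and by 0.89 ± 0.16 (adjusted p = 0.00515) without the 2 libraries. Mgat4b, another N-glycan branching enzyme, was at 238, 167, 135, 144 and 262 CPM in control and 97.2, 107, 107 and 106 CPM in EF_RD (log2 -0.86 ± 0.18, adjusted p = 0.0122), with -0.93 ± 0.20 (adjusted p = 0.0326) without the 2 libraries. Gnpnat1, which acetylates glucosamine phosphate on the way to UDP-GlcNAc, was at 52.3 to 68.0 CPM in control and 30.0 to 42.8 CPM in EF_RD (log2 -0.75 ± 0.14, adjusted p = 0.00578), with -0.72 ± 0.17 (adjusted p = 0.0403) without the 2 libraries. Ero1b, an oxidase that serves disulfide formation, was at 64.9 to 108 and 50.3 to 61.3 CPM (log2 -0.77 ± 0.18, adjusted p = 0.0221), with -0.88 ± 0.20 (adjusted p = 0.0351) without the 2 libraries. Eif2ak3, the stress sensor kinase PERK, averaged 22.6 ± 3.29 CPM (SD) in control and 15.8 ± 2.80 CPM in EF_RD (log2 -0.52 ± 0.11, adjusted p = 0.0135), with -0.69 ± 0.12 (adjusted p = 0.00335) without the 2 libraries.

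In the list of endoplasmic reticulum chaperones and the unfolded protein response, 1 of 23 genes was called. Eif2ak3 and Ero1b, given above and called in both fits, were not in this list. Of the 23, 20 were below 0 with a median of -0.35 (-0.48 without the 2 libraries), and 8 had all EF_RD libraries below all controls, as did 3.34% of all genes. The gene called was the disulfide isomerase Pdia6, at 427, 411, 328, 352 and 369 CPM in control and 244, 271, 258 and 246 CPM in EF_RD (log2 -0.57 ± 0.15, adjusted p = 0.0392, and 0.114 without the 2 libraries). Without the 2 libraries another member was called in its place, the co-chaperone Dnajb9 (-0.83 ± 0.19 (adjusted p = 0.0451), against -0.56 ± 0.18 with an adjusted p of 0.107 on all libraries). Hspa5, the chaperone BiP, had a difference of -0.37 ± 0.15 (adjusted p = 0.188).

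Other genes that fell have roles in ion flow, signalling and the cell cycle. Trpm2, a calcium-permeable channel opened by oxidative stress, was at 46.1, 40.9, 28.8, 35.6 and 46.2 CPM in control and 18.2, 16.6, 19.3 and 12.8 CPM in EF_RD. The highest EF_RD library lay below the lowest control, and the log2 difference was -1.24 ± 0.18 (adjusted p = 0.000234), or -1.38 ± 0.20 (adjusted p = 0.000558) without the 2 libraries, a call made in each of the 23 alternative fits. Fzd1, a Wnt receptor, was at 31.6, 27.8, 30.3, 39.2 and 69.8 CPM in control and 24.7, 14.04, 23.2 and 16.7 CPM in EF_RD (log2 -1.01 ± 0.25, adjusted p = 0.0301, and -1.23 ± 0.28, adjusted p = 0.0419, without the 2 libraries), with control 7 far above the other controls, and its call was lost in 12 of the 23 alternative fits. RT1-CE10, a class I histocompatibility gene of a family with near-identical members, was at 21.3 to 29.3 CPM in control and 12.9 to 16.9 CPM in EF_RD (log2 -0.75 ± 0.17, and -0.85 ± 0.19 without the 2 libraries). Cks1b, a partner of cyclin-dependent kinases, Rbbp4, a histone chaperone, Ap3s1, a vesicle adaptor subunit, and Kbtbd7 fell by 0.63 ± 0.14, 0.56 ± 0.12, 0.61 ± 0.12 and 0.57 ± 0.13, and without the 2 libraries by 0.69 ± 0.16, 0.63 ± 0.13, 0.67 ± 0.14 and 0.67 ± 0.15. RT1-CE10 and these 4 genes did not overlap between groups. Of 35 proliferation genes, 34 were below 0 with a median of -0.62 (-0.45 without the 2 libraries), and 1, the cyclin Ccna2, was called (1.56 ± 0.432 to 0.473 ± 0.237 CPM, log2 -1.71 ± 0.45, adjusted p = 0.0429, and 0.22 without the 2 libraries). Ccnd1, a cyclin that opens the cell cycle, had a difference of -1.43 ± 0.50 (adjusted p = 0.142). Igf1, the growth factor that liver releases under growth hormone, fell from 2436 to 3136 CPM to 1351 to 2192 CPM (log2 -0.63 ± 0.17, adjusted p = 0.049, and 0.187 without the 2 libraries).

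Among the other genes that rose, Slc13a3, a carrier for succinate and other dicarboxylates, was at 19.7, 29.1, 27.7, 27.0 and 22.1 CPM in control and 54.9, 48.1, 53.5 and 54.8 CPM in EF_RD. No library overlapped, and the log2 difference was 1.07 ± 0.17 (adjusted p = 0.000619), or 1.09 ± 0.19 (adjusted p = 0.00515) without the 2 libraries. Syne2, a nesprin of the nuclear envelope, was at 23.2, 27.5, 29.1, 31.0 and 33.2 CPM in control and 59.0, 49.6, 47.7 and 64.3 CPM in EF_RD, also without overlap (log2 0.94 ± 0.12, adjusted p = 2.94e-05, and 0.91 ± 0.14, adjusted p = 0.000816, without the 2 libraries). Both were called in each of the 23 alternative fits. Slc4a4, a sodium bicarbonate cotransporter, was at 28.9 to 58.5 CPM in control and 74.3 to 101 CPM in EF_RD (log2 0.97 ± 0.20, adjusted p = 0.00914), with 1.02 ± 0.23 (adjusted p = 0.0356) without the 2 libraries. Cdc14a, a phosphatase, was at 1.63 to 2.70 and 2.86 to 5.62 CPM (log2 0.90 ± 0.15, and 0.82 ± 0.16 without the 2 libraries). Colq, which anchors acetylcholinesterase, was at 0, 0.383, 0.140, 0.824 and 0.0869 CPM in control and 4.63, 6.02, 1.58 and 7.29 CPM in EF_RD (log2 4.03 ± 0.80, adjusted p = 0.00661), with 3.89 ± 0.89 (adjusted p = 0.0382) without the 2 libraries. Cemip, a hyaluronan-binding protein, was at 0.782 to 1.40 CPM in control and 2.38 to 4.05 CPM in EF_RD (log2 1.56 ± 0.32, and 1.74 ± 0.37 without the 2 libraries). Cyp26b1, which breaks down retinoic acid, was at 0.559, 1.04, 1.35, 1.15 and 1.26 CPM in control and 1.82, 4.23, 2.33 and 5.16 CPM in EF_RD (log2 1.66 ± 0.41, adjusted p = 0.0299, and 1.96 ± 0.44 without the 2 libraries), the 1 called of 10 retinoid genes. Cdc14a, Colq, Cemip and Cyp26b1 are low-level genes. None of them was called with EF_RD 2 and 4 summed and EF_RD 1 and control 5 left out. The adjusted p in that fit was 0.125 for Cdc14a, 0.203 for Colq, 0.112 for Cemip and 0.213 for Cyp26b1. Slc4a4 was not called there either (adjusted p = 0.227).

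**Figure D4:**
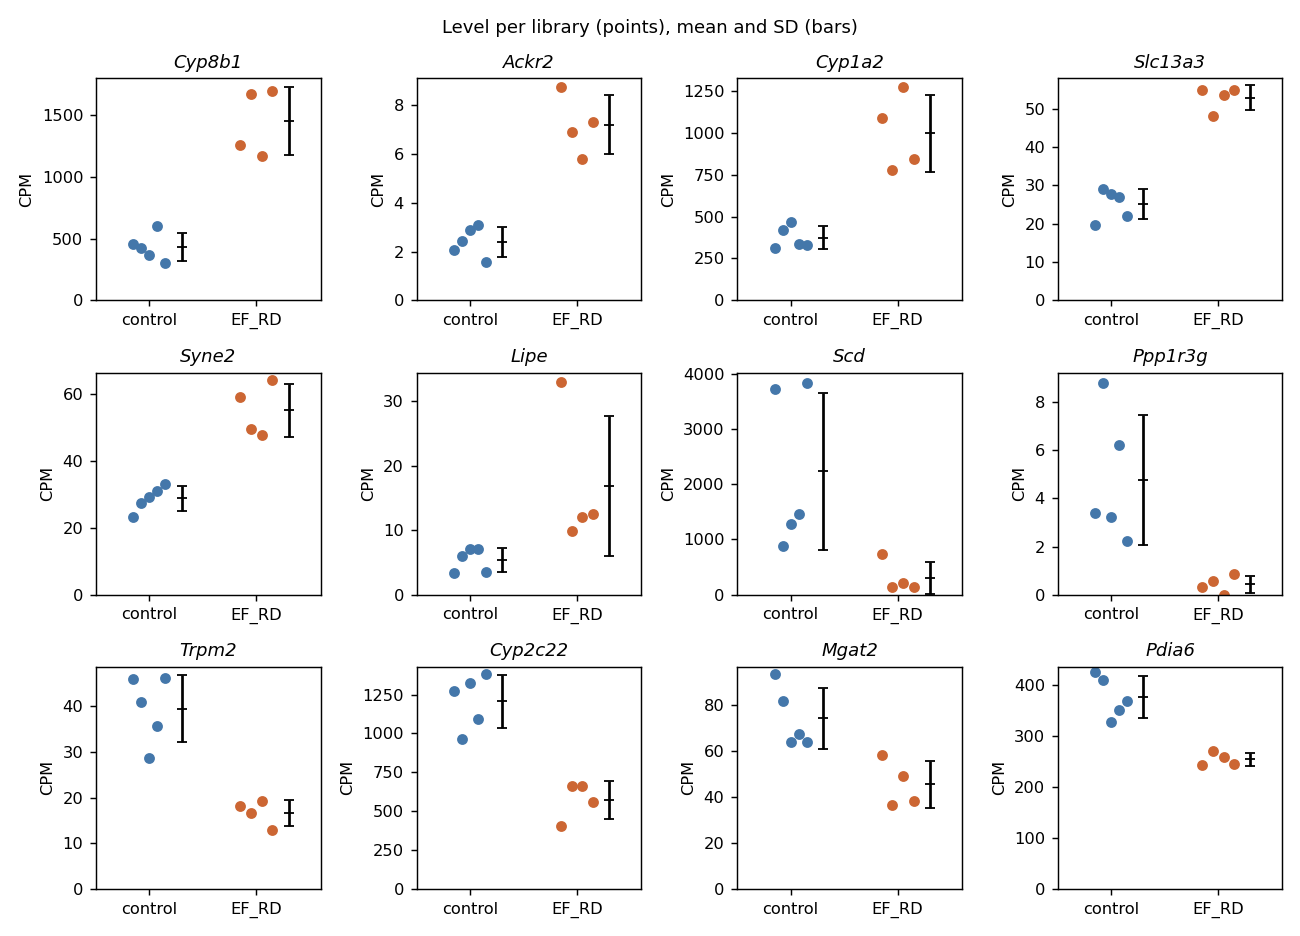
CPM of 12 genes in each control (blue) and EF_RD (orange) library, with the mean and SD as black bars beside the points and every axis starting at 0. The groups do not overlap for any of the 12, and EF_RD 1 is the highest EF_RD library for Lipe (33.0 CPM) and Scd (733 CPM).

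Some of the calls on all libraries came with EF_RD 1. Of 15 tested skeletal muscle markers, 11 were called higher, and without EF_RD 1 and control 5 the median of the 15 went from 5.73 to -0.08. The calcium pump Atp2a1 was at 593 CPM in EF_RD 1 and at 0.04 to 0.66 CPM in the other 8 libraries, Tnnt3 (troponin T) at 351 against at most 0.51, Ttn (titin) at 219 against at most 0.53, and Neb and Actn3 at 130.4 and 141 CPM. None of these 5 was called without the 2 libraries. The chemokine Cxcl1 was at 62.3 CPM in EF_RD 1 and at most 1.07 CPM elsewhere, and the adipocyte marker Cfd at 61.2 CPM against at most 12.4, and neither was called without the 2 libraries (adjusted p = 0.983 and 0.682).

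The metallothioneins, metal-binding proteins induced by zinc and by stress, were highest in EF_RD 1 but not only there. Mt2A was at 21.0, 40.6, 23.8, 54.5 and 14.95 CPM in control and 617, 123, 97.1 and 94.0 CPM in EF_RD, and Mt1 at 56.1, 57.1, 45.1, 88.7 and 33.9 and 580.0, 182, 138 and 141 CPM. All EF_RD libraries were above all control libraries for both. The log2 differences were 2.91 ± 0.54 (adjusted p = 0.0055) and 2.21 ± 0.51 (adjusted p = 0.0221). With EF_RD 1 and control 5 left out they were 1.67 ± 0.51 and 1.38 ± 0.53, and neither passed (adjusted p = 0.156 and 0.274). Mt1m was the third called of 10 genes of zinc handling (log2 2.46 ± 0.58, and 1.07 ± 0.58 without the 2 libraries). Reads of Mt1 and Mt2A may be split between near-identical copies.

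Over the 32 pathway lists, which were chosen with earlier results of these data known, 21 of 539 tested genes were called (3.90%, against 1.52% of all genes), 13 higher and 8 lower. With EF_RD 1 and control 5 left out, 9 were called, 8 of them in both fits. Of all 14885 genes tested in that fit, 56 were called (0.376%). The lists of ketone bodies, transporters, iron, amino acids and urea, acute phase, interferon, heat shock, p53, clock, female-biased genes, apolipoproteins, and complement and coagulation held 212 tested genes, of which edgeR called 0. Of the 212, 35 had an unadjusted p under 0.05 by edgeR, as had 2416 of all 14786 genes tested. DESeq2 called 4 of the 212 and limma 0. The medians of these 12 lists ran from -0.41 (clock, -0.74 without the 2 libraries) to 0.42 (acute phase, 0.06 without them).

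Markers of the cells around hepatocytes leaned in one direction for endothelium. All 14 tested endothelial markers were above 0, with a median of 0.57 (0.58 without the 2 libraries), but 0 were called by edgeR, DESeq2 or limma. An unadjusted p under 0.05 by edgeR was found for 11 of these markers, and for 2416 of all 14786 genes tested. The sum of the endothelial markers was 265, 425, 386, 525 and 241 CPM in control 3 to 7 and 512 to 561 CPM in EF_RD, so that the groups overlapped. Control 3 and 7, the lowest here, were also the lowest controls for the Kupffer cell, neutrophil and lymphocyte sums. Stab1, a scavenger receptor of sinusoidal endothelium, had a difference of 0.80 ± 0.30 (adjusted p = 0.168) and Tie1, a receptor kinase, one of 0.64 ± 0.21 (adjusted p = 0.112). In whole liver, more endothelial cells and more RNA per cell cannot be told apart. Kupffer cell and macrophage markers summed to 443 to 883 CPM in control and 602 to 819 CPM in EF_RD, and 0 of 16 were called by edgeR, DESeq2 or limma, with 0 at an unadjusted p under 0.05. Neutrophil, lymphocyte, stellate cell, cholangiocyte and hepatocyte markers held 73 tested genes, of which edgeR called 0, DESeq2 3 and limma 0, and 14 had an unadjusted p under 0.05. Albumin (Alb) was at 93251 to 128705 CPM in control and 87018 to 98705 CPM in EF_RD (log2 -0.17 ± 0.16, adjusted p = 0.628).

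EF_RD was next compared with the group that received EF alone, from which it differs by RD. Against EF, 107 genes were called (0.724%), 72 higher (0.487%) and 35 lower (0.237%), and 11 of the higher were muscle markers. Without EF_RD 1 and control 5, 11 genes were called (0.0739%), 5 higher (0.0336%) and 6 lower (0.0403%), and all 11 were among the 107. Cyp26b1 stood out: it averaged 0.388 ± 0.180 CPM in EF and 3.38 ± 1.57 CPM in EF_RD, and was higher in EF_RD by 3.12 ± 0.44 (adjusted p = 0.000617), or by 3.33 ± 0.44 (adjusted p = 0.000252) without the 2 libraries. The alike pair EF_RD 2 and 4 was highest for it (4.23 and 5.16 CPM), with EF_RD 1 and 3 at 1.82 and 2.33 CPM. Fzd1 was lower in EF_RD than in EF by 1.35 ± 0.25 (adjusted p = 0.00865), and Mgat2 by 0.60 ± 0.15 (adjusted p = 0.042), both also called without the 2 libraries. RT1-CE10 (-0.71 ± 0.17), Rbbp4 (-0.50 ± 0.12) and Cdc14a (0.72 ± 0.15) were called against EF on all libraries. None of these was called without the 2 libraries (adjusted p = 0.116, 0.116 and 0.126). The count of genes called against EF ran from 13 without EF_RD 1 to 312 without EF 1, fell to 28, 49, 57 and 54 without EF 2, 3, 4 and 5, rose to 161 without EF_RD 2, and was 0 by edgeR when only the libraries compared were fitted (1295 genes at an unadjusted p under 0.05).

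Cyp8b1 and Slc13a3 were not called against EF. Cyp8b1 averaged 1297 ± 336 CPM in EF, 1339 ± 177 CPM in EF_PF and 1454 ± 275 CPM in EF_RD, and EF_RD differed from EF by 0.16 ± 0.22 (adjusted p = 0.79). For Slc13a3 the means were 65.96 ± 18.5, 53.7 ± 8.38 and 52.8 ± 3.22 CPM. The sterol genes differed in size: Msmo1, a late sterol oxidase, and Fdps, farnesyl diphosphate synthase, were lower in EF_RD than in EF by 1.40 and 0.98 (adjusted p = 0.0303 and 0.0483), without a call once EF_RD 1 and control 5 were left out. Beside them, the median of the mevalonate list against control was 1.67 in EF, 1.23 in EF_PF and 0.47 in EF_RD, values that share the control libraries. Endothelial markers Stab1, Tie1 and Pde2a were higher in EF_RD than in EF (1.25, 0.84 and 0.78, adjusted p = 0.042, 0.0483 and 0.0179), also without a call when the 2 libraries were left out.

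EF_RD and EF_PF differ both in RD and in PF, so a difference between them cannot be ascribed to either. Against EF_PF, 105 genes were called (0.71%), 88 higher (0.595%) and 17 lower (0.115%), and without EF_RD 1 and control 5 a single gene (0.00672%), Cyp1a1. It averaged 127 ± 67.2 CPM in EF_PF and 5.07 ± 2.51 CPM in EF_RD, a log2 difference of -4.64 (adjusted p = 7.44e-05), and -4.63 (adjusted p = 0.00117) without the 2 libraries. Cyp1a2 was also lower than in EF_PF on all libraries (2584 ± 529 CPM there, log2 -1.38, adjusted p = 0.0104), but was not called without the 2 libraries (adjusted p = 0.124). The count against EF_PF ran from 1 without EF_RD 1 to 272 without EF_RD 3, was 242 and 255 without EF_RD 2 and 4, and fell to 15, 34, 52, 37 and 39 without EF_PF 1, 2, 3, 5 and 6.

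**Figure D5:**
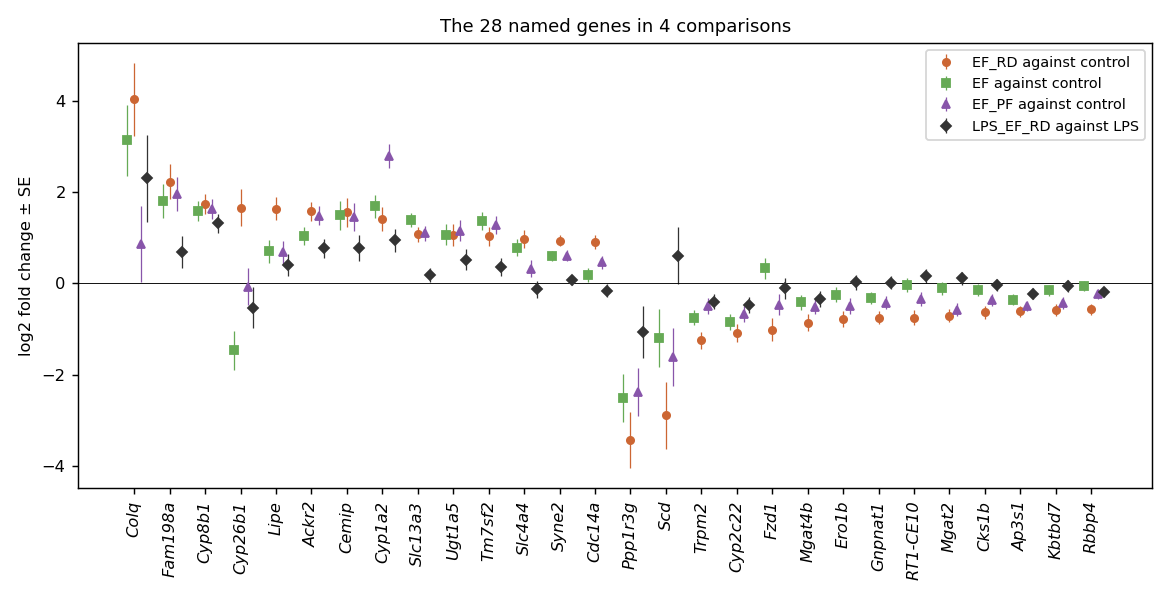
Log2 fold changes with SE of 28 named genes (x axis) in 4 comparisons: EF_RD, EF and EF_PF against the same control libraries, and LPS_EF_RD against LPS. Cyp8b1 lies between 1.32 and 1.75 in all 4, while Cyp26b1 is at 1.66 in EF_RD and -1.47 in EF.

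The LPS-injected rats give a comparison of the same treatment in libraries outside the comparisons above, which entered the same pooled fit. In LPS_EF_RD against LPS 2 genes were called (0.0135%), Cyp8b1 and the carboxylesterase Ces2j (log2 1.56). Cyp8b1 averaged 303 ± 74.2 CPM in LPS and 756 ± 114 CPM in LPS_EF_RD (SD, n = 5 each), a log2 difference of 1.32 ± 0.21 (adjusted p = 0.00602). The library LPS 3 held RNA of other tissues, with 2454 CPM of pancreas markers (38.6 to 83.7 CPM in the other 9 LPS and LPS_EF_RD libraries) and Atp2a1 at 44.7 CPM (at most 0.545 CPM in those 9). With LPS 3 left out, 3 genes were called, and Cyp8b1 was at 1.29 ± 0.23 (adjusted p = 0.0273). On all libraries its neighbours Ackr2 (0.77 ± 0.20, adjusted p = 0.339), LOC102551973 (1.01 ± 0.29, adjusted p = 0.348) and Fam198a (0.69 ± 0.35, adjusted p = 0.684) had the same sign and did not pass. Of the 51 genes called in both fits, 40 had the same sign there (78.4%), against 58.2% of all genes tested, and 14 had that sign with an unadjusted p under 0.05 (7.64% of all genes had such a p in either direction). Scd had the opposite sign (0.61 ± 0.62, adjusted p = 0.905), with 668 ± 267 CPM in LPS and 1015 ± 833 CPM in LPS_EF_RD. The test of the difference between the 2 settings called 19 genes (0.128%), all with a lower log2 effect after LPS, among them Ttn, Neb, Tnnt3 and Atp2a1 of the muscle list. Syne2 (-0.86, adjusted p = 0.014), Cdc14a (-1.06, adjusted p = 0.014) and Ccdc180 (adjusted p = 0.0134) were among them. Without EF_RD 1 and control 5 edgeR called 0 genes in that test (883 at an unadjusted p under 0.05), and without EF_RD 1 alone also 0. It called 5 without control 3, 10 without control 4, 6 or 7 or LPS_EF_RD 1, 12 without LPS_EF_RD 2 or 4, 2 without LPS 3, and 32, 40 and 33 without EF_RD 2, 3 and 4. The count of 2 was 0 without LPS 4, 1 without LPS 1, 2 or 5 or LPS_EF_RD 1, 6 or 8, 6 without LPS_EF_RD 4 and 9 without LPS_EF_RD 2, and 14 (0.0941%, 4 higher at 0.0269% and 10 lower at 0.0672%) when EF_RD 1 and control 5 were left out of the pooled fit.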

How the data were processed

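Liver RNA of 8 groups of rats was sequenced in 38 libraries. The deposited table of 31038 named genes holds whole read counts: per the file headers, featureCounts 2.0.6 assigned pairs to a RefSeq annotation of rn6 by gene name, without a strand or multi-mapping option. Other tools in the submitters' processing notes are STAR and RSEM, with a further build, mRatBN7.2. The deposited TPM table was used in alternative fits on log2(TPM + 1) and log2(TPM + 0.1). 0 columns were left unmapped.

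Counts were fitted with edgeR 4.0.16 in R 4.3.3: filterByExpr (minimum count 10, minimum total 15) left 14786 genes, TMM scaled the libraries, and the quasi-likelihood model, fitted to every library, had a mean for each group. P-values are two-sided, Benjamini-Hochberg adjusted over all genes tested, and called under 0.05. CPM are counts scaled to the tested genes' total by TMM. Alternatives used limma 3.58.1 and DESeq2 1.42.0. The test was checked on counts simulated from edgeR's own estimates of spread. Those counts held no library with RNA of other tissues and no alike pair, so the check does not cover these features. The genes named were the 14 higher and 14 lower with the largest fold change among those called on all libraries and without EF_RD 1 and control 5, with a mean of at least 2 CPM and a proper symbol, the 5 largest of those lost, called members of lists, and fixed genes, 2 of which are not reported here. Other genes given with values, such as list members that did not pass (Nr0b2, Abcg5, Fads2, Fgf21, Hspa5, Ccnd1, Stab1), were chosen after their values were seen. The comparison, the lists and this rule were chosen with earlier results of these data known. Summing EF_RD 2 and 4 was added after seeing the data. Promoters are RefSeq's, build GRCr8.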

Additional observations from a re-analysis of the deposited data

Results flagged for a closer look

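Within a group of 4 or 5 libraries, a library was listed when it lay far from all others of its group by Dixon's test. That was so for 27 of 114 gene and group combinations and for 13 of 26 marker sums. Chance gives about 1 in 20 for independent values, which these are not, since they share libraries. Some genes, such as Atp2a1, were also named because their call was lost without EF_RD 1 and control 5. The counts therefore cannot be set against that rate. In EF_RD 1 these were Lipe (33.0 CPM), Scd (733), Mgat4b (97.2), Atp2a1 (593), Tnnt3 (351), Neb (130.4), Actn3 (141), Ttn (219), Mt2A (617), Mt1 (580.0), Mt1m (5.32), Cxcl1 (62.3), Mylpf (199.7), Eno3 (177) and Cfd (61.2). EF_RD 3 stood apart for Slc4a4 (74.3 CPM), Cyp7a1 (178) and Pck1 (3377). Control 3 stood apart for Ap3s1 (20.7 CPM), Kbtbd7 (14.5), Actn3 (0.466) and Prdx1 (729). Control 6 stood apart for Mt1m (0.783 CPM), and control 7 for Fzd1 (69.8), Atp2a1 (0.435), Alb (128705) and Cyp2c11 (1986).

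Among the marker sums, control 7 stood apart for hepatocyte markers (227176 CPM), and control 5 for cholangiocyte (172.5), erythroid (3563), exocrine pancreas (4369) and islet (1.07) markers. EF_RD 1 stood apart for Kupffer cell (602), lymphocyte (44.2), stellate cell and fibroblast (1387), erythroid (2166), skeletal muscle (7166), exocrine pancreas (214), islet (5.88) and adipocyte (427) markers. The part of EF_RD 1 and control 5 in each gene's result was measured by the fits without both. The other libraries listed stayed in those fits, which therefore do not measure their part. Each of them was left out singly in an alternative fit.

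The effect of EF with RD differed between rats with and without LPS, by edgeR's interaction test on all libraries, for 9 named genes. Those were Syne2 (-0.86), Cdc14a (-1.06) and the muscle genes Eno3 (-5.61), Mylpf (-9.48), Ttn (-10.61), Actn3 (-10.73), Neb (-11.17), Tnnt3 (-12.65) and Atp2a1 (-15.40), each the log2 effect after LPS minus that without. The muscle genes were high in EF_RD 1 and also in LPS 3, where Atp2a1 was at 44.7 CPM, so both arms hold such RNA. Without EF_RD 1 and control 5 none of the 9 passed, though Atp2a1 was still at -6.68 (adjusted p = 0.522), Syne2 at -0.83 (adjusted p = 0.104) and Cdc14a at -0.97 (adjusted p = 0.103).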

How the results depend on the processing

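The 225 genes called in EF_RD against control (127 higher, 98 lower, 21 list genes) were 236 (130, 106, 21) with DESeq2 size factors, 280 (234, 46, 23) by total counts, 291 (204, 87, 21) with no filter and 218 (125, 93, 21) with a stricter one. They were 409 (200, 209, 37) with DESeq2, 107 (50, 57, 13) with limma-voom, 79 (64, 15, 13) on log2(TPM + 1), 82 (69, 13, 14) on log2(TPM + 0.1), 100 (77, 23, 16) at a mean of 1 TPM or more, and 16 (10, 6, 6) when only these groups were fitted. They were 56 (27, 29, 9) without EF_RD 1 and control 5, 199 (148, 51, 17) with EF_RD 2 and 4 summed, and 9 (6, 3, 1) with both changes. Leaving out 1 library gave 50 to 276 genes (30 to 200 higher, 20 to 111 lower, 8 to 24 list genes). Calls against EF (107) were 109, 90, 196, 86, 221, 17, 14, 14, 10, 0, 11, 136 and 1 in the same order of settings, and 13 to 312 with 1 library left out. Calls against EF_PF (105) were 106, 142, 255, 64, 222, 8, 18, 14, 13, 12, 1, 203 and 0, and 1 to 272. Calls in LPS_EF_RD against LPS (2) were 16 with DESeq2, 1 with limma-voom or only the groups compared, 4 on both TPM scales, 14 without EF_RD 1 and control 5, and 0 to 9 with 1 library left out. The interaction (19) gave 42 with no filter, 4 with the stricter one, 11 with DESeq2, 1 on both TPM scales, 28 with EF_RD 2 and 4 summed, and 0 with limma-voom, the TPM filter, only the groups compared, or without EF_RD 1 and control 5, and 0 to 40 with 1 library left out. The cause was not tested.

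Samples share only a number across groups: deviations of equal numbers correlated at 0.222 (number 3) and 0.166 (number 4), 2 pairs. These values lay within the range of pairs with unequal numbers, which was -0.357 to 0.395. With the replicate block, 255 genes were called (120 higher, 135 lower, 40 list genes), 15 against EF, 13 against EF_PF, 1 in LPS_EF_RD against LPS and 2 in the interaction.

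Cyp8b1, Ackr2, Slc13a3, Syne2 and Trpm2 kept their call in all 23 alternatives. Signs turned for Alb (0.0379 with the replicate block), and, with 1 library left out, for Fasn (-0.78 to 0.00166, above 0 without control 3), Cyp7a1 (-0.14 to 0.21, -0.14 without control 7 and -0.13 without EF_RD 3), and, without EF_RD 1, for Neb (-0.14 to 8.10), Mylpf (-0.0431 to 7.15) and Eno3 (-0.23 to 4.90). Without EF_RD 1 and control 5, Neb was -0.17 and Eno3 -0.19, and with the pair also summed Neb was -0.10, Mylpf -0.00523 and Eno3 -0.24.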
